A study of Homo sapiens with 6 samples.

Results

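The genes described here are 46 genes of the actin cytoskeleton and of serum response factor (SRF), the transcription factor that controls many of them. They were taken by gene name from the 29790 genes of the table, with MKL1 and MKL2 under these older symbols, and each matched 1 gene. They comprise actins, proteins that bind actin monomers, subunits of the Arp2/3 branching complex, proteins along the filament, crosslinkers and adhesion proteins, FHL proteins, the ezrin, radixin and moesin linkers, and SRF with its coactivators. RNA came from the human melanoma cell line A375, in 3 libraries of cells given 3 µM fluvastatin for 24 h and 3 libraries of untreated control cells grown beside them, numbered 0, 1 and 2 in each group. Fluvastatin is a statin and blocks the mevalonate pathway. The labels do not say that the triplicates were separate cultures, so p-values reflect differences among libraries of a group that could be purely technical. One cell line was used and no other dose or time.

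Actin exists in cells as monomers and as filaments, and a few families set the balance between them. Profilins feed monomers to growing filaments, beta-thymosins hold monomers in reserve, and cofilins sever filaments and return monomers to the pool. The same monomers control transcription: the coactivators MKL1 and MKL2, now named MRTFA and MRTFB, bind free actin and are held away from SRF by it. When filaments assemble the coactivators are released and act with SRF at the CArG boxes of actin, calponin, filamin and other cytoskeletal genes.

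The header of the table names no unit, and the values were read as FPKM, a count of fragments divided by transcript length and by the library's mapped fragments. Sums over all genes were 686133 to 729564 FPKM. Depth estimated from the steps between low values, relative to control replicate 0, was 1.27, 1.51 and 1.40 for fluvastatin replicates 0, 1 and 2, and 1.18 and 0.965 for control replicates 1 and 2. Every fluvastatin library was deeper than every control library, so depth and treatment cannot be told apart. Among 10 melanoma lineage markers, 8 of which had values, 4 exceeded 1 FPKM in a library. The list summed to 101.3 to 112.5 FPKM in fluvastatin libraries and 70.6 to 79.2 FPKM in control libraries. SOX10 was higher, at 72.0 FPKM in fluvastatin and 23.3 FPKM in control libraries (adjusted p = 4.66e-04), and PRAME lower, at 26.5 FPKM in fluvastatin and 44.1 FPKM in control libraries (adjusted p = 0.00369), whereas PMEL, DCT, TYRP1 and S100B stayed below 1 FPKM in every library. Of 11 markers of smooth muscle and fibroblasts, cells rich in several of the genes described here, 2 exceeded 1 FPKM (COL1A1 and PDGFRB), with sums of 10.5 to 12.6 FPKM in fluvastatin and 18.2 to 21.7 FPKM in control libraries. The contractile markers MYH11, DES, ACTG2 and LMOD1 stayed below 1 FPKM. Of 8 endothelial and leukocyte markers 3 exceeded 1 FPKM, namely CD68, LYZ and KDR. The sums were 44.7 to 48.6 FPKM in fluvastatin and 25.5 to 31.1 FPKM in control libraries, mostly from CD68. CD68 and LYZ were higher in the test. KDR was also called higher, but it stayed below 1 FPKM in every control library, so its call is a description only. PECAM1, CDH5 and VWF stayed below 1 FPKM. Of 6 epithelial markers 3 exceeded 1 FPKM, all keratins, with sums of 438.9 to 489.5 FPKM in fluvastatin and 481.9 to 548.8 FPKM in control libraries. KRT18, the bulk of that sum, was lower (adjusted p = 0.0457), whereas KRT8 was 1.45-fold higher (adjusted p = 0.00977). KRT14 was 7.23-fold higher (adjusted p = 4.45e-04) but stayed below 1 FPKM in every control library. Like KDR, it was tested through its fluvastatin libraries alone, and its call is a description only. The part of these markers in the values below was not tested. In a bulk sample fewer cells of a kind and less RNA per cell cannot be told apart.

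After fluvastatin, genes of the actin system were called in both directions. The cytoplasmic actins, CNN2, CNN3, LIMCH1 and SRF itself were lower, whereas the beta-thymosins, ezrin, moesin, the talins, filamin A, PDLIM5, PDLIM7 and FHL2 were higher. Of these calls, ACTB passed in 0 and SRF in 2 of 6 fits that each left out 1 library. The others named here passed in all 6. Of the 46 genes, 44 had at least 1 FPKM in at least 3 libraries and were tested. The 46 were chosen with earlier results of these data known, so their counts and shares are descriptions only. With limma on log2(FPKM + 1) and Benjamini-Hochberg adjustment over all 14344 genes tested, 24 of the 44 changed at an adjusted p below 0.05, which is 54.5%, against 27.7% of all genes tested. In the direction of a rise the count was 16, or 36.4%, against 14.1% of all genes. In the direction of a fall it was 8, or 18.2%, a share near the 13.6% of all genes. CNN1, which passed the filter through its fluvastatin libraries alone, is among the 16 and the 24, and its call is a description only. The median log2 fold change was 0.18 over the 44 genes and −0.01 over all genes tested, and the median size of the change without its sign was 0.34 against 0.26.

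Many of the 46 genes are abundant, and abundant genes varied less between replicates. The median SD within groups was 0.102 on the log2 scale for the 44 genes, 0.150 for all genes tested and 0.106 for genes that averaged 50 FPKM or more. Among genes at that level, a comparison chosen after seeing the data, 36.4% were called (15.0% higher and 21.4% lower), and 16 of 29 cytoskeletal genes were called, which is 55.2%, with 12 higher (41.4%) and 4 lower (13.8%), so the share of falls was below that background. At least 1.5-fold and called were 13 of the 44, with 10 higher and 3 lower, against 16.1% of all genes tested. Fluvastatin and control libraries did not overlap for 32 of the 44, against 44.8% of all genes, and 21 of these 32 were higher and 11 lower in fluvastatin libraries. With 1 library left out in turn, 16 of the 24 calls passed in each of the 6 fits, and 8 were lost in at least 1 of them. CNN1, whose call is a description only, is among these 16 calls. It is also among the 10 higher past 1.5-fold and the 32 without overlap. The count of lower genes was 4 without fluvastatin replicate 0, 5 without fluvastatin replicate 1 or 2 or control replicate 0 or 1, and 6 without control replicate 2. With estimated depth as a covariate, 1 of the 24 calls remained, that of LIMCH1 at an adjusted p of 0.0350, and the sign of all 24 stayed the same.

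**Figure D1:**
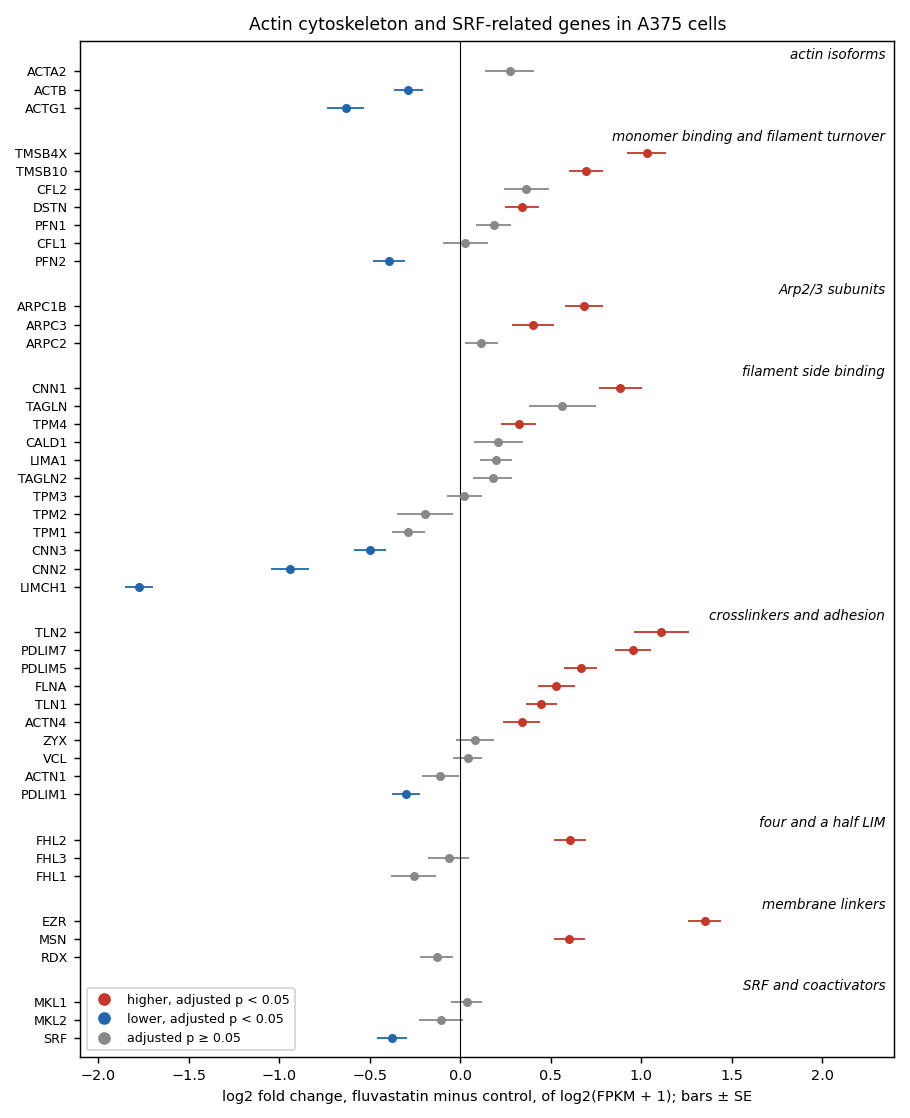
Log2 fold change, fluvastatin minus control, on the log2(FPKM + 1) scale for the 44 tested genes, grouped by role, with bars for the SE and colour for the call at an adjusted p below 0.05. Of the 44 genes, 16 lie to the right as higher, 8 to the left as lower, and 20 did not pass; LIMCH1 lies farthest left at −1.77 and EZR farthest right at 1.35.

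SRF, a MADS-box factor that also controls its own gene, was lower after fluvastatin, and its coactivators did not pass the test. SRF (chromosome 6, 43171299 to 43181507, plus strand, GRCh38) had 10.9, 12.1 and 11.6 FPKM in fluvastatin libraries, against 15.5, 15.7 and 14.5 FPKM in control libraries. Each fluvastatin library was below each control library. The means were 11.5 ± 0.607 FPKM with fluvastatin and 15.2 ± 0.606 FPKM in controls (SD, n = 3 each), a log2 fold change of −0.38 ± 0.08 (SE) with an adjusted p of 0.0199. The call was lost without fluvastatin replicate 0 (adjusted p = 0.0722), fluvastatin replicate 2 (0.0572), control replicate 0 (0.0578) or control replicate 1 (0.0672). MKL1, the widely expressed coactivator, had 10.8, 11.2 and 10.3 FPKM in fluvastatin libraries, against 10.0, 11.0 and 10.4 FPKM in control libraries. MKL2, its relative, had 6.65, 5.77 and 7.71 FPKM in fluvastatin libraries, against 6.73, 7.95 and 7.15 FPKM in control libraries. Both groups overlapped for either coactivator, and neither passed the test (adjusted p = 0.787 for MKL1 and 0.552 for MKL2). MKL1 lies over SGSM3 on the opposite strand, and since no strand setting of the counting is given, reads of overlapping genes cannot be told apart.

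CArG boxes were looked for in the promoters of the cytoskeletal genes, because SRF binds them and because both falling and rising genes belong to its classical targets. The windows ran from 250 bases before to 50 bases after each RefSeq start site (GRCh38.p14). A box was CC, then 6 bases that are each A or T, then GG, which reads as the same motif on both strands, and no other motif was searched. Windows were matched for 42 of the 46 genes; ACTB, PFN2, ARPC1B and TAGLN are named only. Of the 42, 9 held a box (21.4%), compared with 438 of 27305 genes in the whole RefSeq table (1.60%). The 42 genes had more windows per gene, 85 in all, against 35116 for the 27305 genes. Of the 85 windows 11 held a box, against 1.29% of all windows. The genes were listed in part as SRF targets, so a higher share was built into the choice and is a description only. The 9 were SRF, ACTG1 and CNN2, which were lower after fluvastatin, FHL2, TPM4 and FLNA, which were higher, ACTN1 and FHL1, which did not pass, and FILIP1L, which was not tested. A further 15 called genes had windows without a box, which says only that these letters are not in those windows. Of 147 tested genes of the whole table with a box, 32 were higher and 21 lower, 36.1% in all, against 29.9% of tested genes whose windows had none. The sequences below show the box in capitals, with up to 50 bases on either side, 5′ to 3′ on the strand of the gene. SRF carries a pair of boxes side by side, in chr6:43171189-43171268 on the plus strand, ending at the base before the start site. The boxes of ACTG1 (chr17:81512834-81512943, minus strand) and CNN2 (chr19:1026469-1026578, plus strand) begin 94 and 89 bases before the start. Among the rising genes, FLNA has its box 94 bases before the start (chrX:154374669-154374778, minus strand), TPM4 173 bases before it (chr19:16067315-16067424, plus strand), and FHL2 a different box at each of 2 start regions (chr2:105399052-105399160 and chr2:105438555-105438664, minus strand). ACTN1, which did not pass the test, is shown for comparison (chr14:68977678-68977787, minus strand).
SRF, lower: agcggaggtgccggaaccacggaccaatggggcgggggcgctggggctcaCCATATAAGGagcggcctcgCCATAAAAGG
ACTG1, lower: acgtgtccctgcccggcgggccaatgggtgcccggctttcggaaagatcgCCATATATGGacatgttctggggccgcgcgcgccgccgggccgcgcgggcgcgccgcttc
CNN2, lower: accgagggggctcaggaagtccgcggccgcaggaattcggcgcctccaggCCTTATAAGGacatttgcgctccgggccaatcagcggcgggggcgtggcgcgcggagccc
FLNA, higher: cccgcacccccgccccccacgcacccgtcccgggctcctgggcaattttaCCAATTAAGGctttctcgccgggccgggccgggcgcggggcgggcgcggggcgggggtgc
TPM4, higher: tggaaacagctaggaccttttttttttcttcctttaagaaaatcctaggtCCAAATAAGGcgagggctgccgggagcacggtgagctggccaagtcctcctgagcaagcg
FHL2, higher, start region at 105399052: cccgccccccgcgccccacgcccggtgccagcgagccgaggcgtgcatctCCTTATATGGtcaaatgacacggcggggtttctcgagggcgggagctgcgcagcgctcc
FHL2, higher, start region at 105438555: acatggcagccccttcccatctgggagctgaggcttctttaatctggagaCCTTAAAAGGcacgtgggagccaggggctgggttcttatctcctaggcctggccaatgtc
ACTN1, did not pass: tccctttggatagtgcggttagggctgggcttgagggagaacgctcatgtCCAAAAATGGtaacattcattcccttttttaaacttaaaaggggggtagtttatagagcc
The box of CNN2, CCTTATAAGG, has the same letters as that of FILIP1L, and the box of SRF farther from its start reads on the opposite strand as that of FHL2 at 105399052. A match to these letters is a description of the promoter and no evidence that SRF was bound there in these cells.

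The cytoplasmic actins form the bulk of actin in non-muscle cells, and both were lower after fluvastatin. ACTG1, gamma-actin (chromosome 17, 81509971 to 81523847, minus strand), had 872.2, 999.8 and 906.5 FPKM in fluvastatin libraries, against 1504, 1505 and 1303 FPKM in control libraries. All fluvastatin libraries lay below all control libraries, with a log2 fold change of −0.63 ± 0.10 (SE) and an adjusted p of 0.00679. ACTB, beta-actin, had 1912, 1854 and 1989 FPKM in fluvastatin libraries, against 2324, 2420 and 2274 FPKM in control libraries. These groups were also separate, but the change was small, −0.29 ± 0.08 (SE) on the log2 scale with an adjusted p of 0.0411, and the call was lost with any 1 library left out (adjusted p = 0.0613 to 0.121). The ratio of ACTB to ACTG1 was therefore 2.19, 1.85 and 2.19 in fluvastatin libraries, against 1.55, 1.61 and 1.75 in control libraries, with no overlap. ACTA2, the smooth muscle alpha-actin and a classical SRF target, had 9.53, 7.68 and 6.72 FPKM in fluvastatin libraries, against 6.06, 6.03 and 7.03 FPKM in control libraries. The groups overlapped and the gene did not pass (adjusted p = 0.180). ACTA2 lies over STAMBPL1, FAS and ACTA2-AS1 on the opposite strand. Summed over these actins the level was 2852 ± 54.7 FPKM in fluvastatin libraries and 3783 ± 179.2 FPKM in control libraries (SD, n = 3 each).

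Monomer-sequestering thymosins moved against actin. TMSB10, thymosin beta-10 and the most abundant of the 46 genes, had 2988, 3281 and 2883 FPKM in fluvastatin libraries, against 2008, 1819 and 1813 FPKM in control libraries. It was 1.62-fold higher (log2 fold change 0.70 ± 0.09, adjusted p = 0.00353), with each fluvastatin library above each control library. TMSB4X, thymosin beta-4, had 209.3, 261.9 and 234.9 FPKM in fluvastatin libraries, against 111.3, 111.7 and 119.7 FPKM in control libraries. It was 2.06-fold higher (log2 fold change 1.03 ± 0.11, adjusted p = 0.00152), again without overlap. Pseudogene copies of TMSB4X in the table summed to 14.0% of its level and may share its reads. The beta-thymosin sum stood at 1.14, 1.24 and 1.07 times the actin sum in fluvastatin libraries, against 0.553, 0.491 and 0.539 times in control libraries. Thymosin RNA thus exceeded actin RNA per length in each fluvastatin library and in no control library.

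Profilins and the cofilin family had smaller fold changes than the thymosins. PFN2, the profilin best known from nerve cells, had 158.6, 163.3 and 168.9 FPKM in fluvastatin libraries, against 210.8, 203.7 and 231.2 FPKM in control libraries. The groups were separate and PFN2 was 1.32-fold lower (−0.39 ± 0.09 on the log2 scale, adjusted p = 0.0198). The call was lost without fluvastatin replicate 0 (adjusted p = 0.0704) or 1 (0.0582). PFN1, the ubiquitous profilin, averaged 803.2 ± 45.6 FPKM in fluvastatin libraries and 706.8 ± 53.3 FPKM in control libraries and did not pass (adjusted p = 0.205). DSTN, destrin, an actin-depolymerizing relative of cofilin, had 126.4, 136.7 and 143.5 FPKM in fluvastatin libraries, against 109.0, 99.1 and 112.1 FPKM in control libraries. Its groups did not overlap, the log2 fold change was 0.34 ± 0.09 and the adjusted p 0.0390, which rose above the threshold with any 1 library left out (0.0527 to 0.116). CFL1, the main non-muscle cofilin, averaged 1015 ± 78.2 FPKM in fluvastatin libraries and 998.9 ± 135.3 FPKM in control libraries (adjusted p = 0.886). CFL2, the muscle cofilin, averaged 69.7 ± 8.75 FPKM in fluvastatin libraries and 53.7 ± 4.71 FPKM in control libraries, with an adjusted p of 0.0667. The profilin sum, 966.8 ± 42.9 FPKM in fluvastatin libraries and 922.1 ± 39.3 FPKM in control libraries, overlapped between groups, as did the cofilin and destrin sum, 1220 ± 77.9 FPKM in fluvastatin libraries and 1159 ± 130.3 FPKM in control libraries. Their ratios to actin did not overlap, with a lower actin sum in the denominator in fluvastatin libraries. Relative to the actin sum, profilin RNA was 0.345, 0.354 and 0.319 in fluvastatin libraries, against 0.246, 0.240 and 0.245 in control libraries. The corresponding cofilin and destrin ratio was 0.411, 0.455 and 0.417 in fluvastatin libraries, against 0.334, 0.299 and 0.285 in control libraries.

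**Figure D2:**
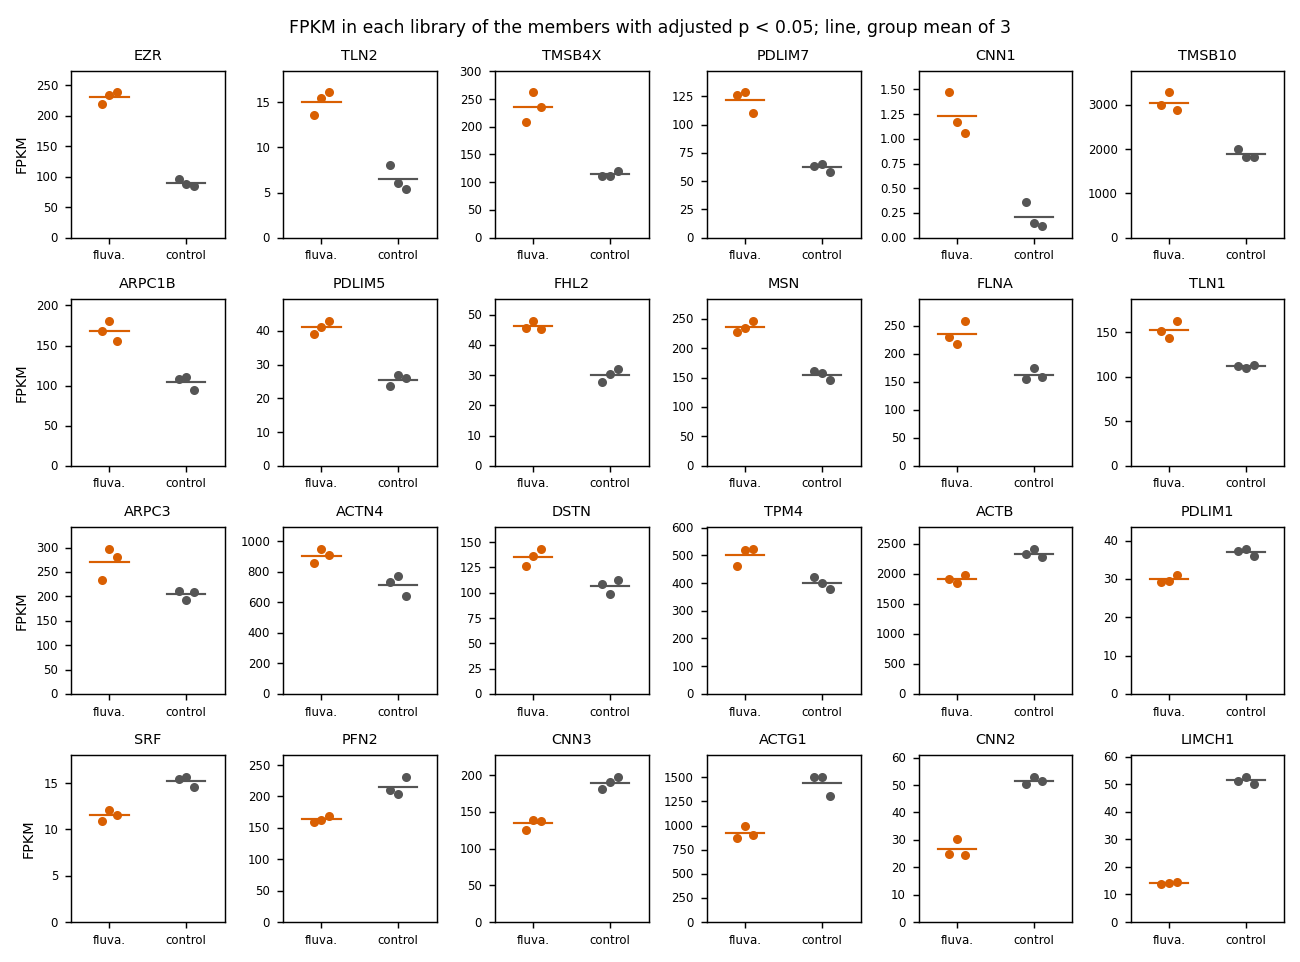
FPKM in each library for the 24 called genes, each panel on its own linear axis from 0, with fluvastatin libraries left of control libraries and a line at each group's mean. Fluvastatin points lie wholly above control points in the panels of the 16 higher genes, from EZR to TPM4, and wholly below them in those of the 8 lower genes, from ACTB to LIMCH1.

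Arp2/3 nucleates branched filaments, and ARPC1B, ARPC2 and ARPC3 are among its subunits. ARPC1B had 168.5, 181.2 and 155.8 FPKM in fluvastatin libraries, against 108.0, 110.4 and 94.8 FPKM in control libraries. It was 1.61-fold higher (log2 fold change 0.69 ± 0.10, adjusted p = 0.00529) and its groups were separate, though it overlaps PDAP1 on the opposite strand, which averaged 89.1 FPKM. ARPC3 had 234.3, 297.6 and 281.5 FPKM in fluvastatin libraries, against 210.2, 192.3 and 209.7 FPKM in control libraries. These groups did not overlap either, and ARPC3 rose by 0.40 ± 0.11 on the log2 scale with an adjusted p of 0.0423, which passed in only 1 of the 6 fits with a library left out (range 0.0311 to 0.12). ARPC2 averaged 154.2 ± 10.1 FPKM in fluvastatin libraries and 142.1 ± 6.58 FPKM in control libraries (adjusted p = 0.386).

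Of 12 genes whose products bind along filaments, 3 were lower, 2 higher and 7 did not pass. Of the 12, 41.7% were called, against 27.7% of all genes tested, and the 16.7% higher is near the 14.1% of all genes. The 2 higher genes include CNN1, whose call is a description only. LIMCH1, an activator of non-muscle myosin II (chromosome 4, 41359607 to 41700044, plus strand), had 14.0, 14.3 and 14.7 FPKM in fluvastatin libraries, against 51.2, 52.6 and 50.2 FPKM in control libraries. The gap between groups was many times the spread within either one, and the log2 fold change of −1.77 ± 0.08 (adjusted p = 1.07e-04) was the largest fall among the 44 tested genes. Calponins bind actin filaments and are known to damp myosin activity. CNN2, a non-muscle calponin (chromosome 19, 1026581 to 1039068, plus strand), had 24.9, 30.1 and 24.6 FPKM in fluvastatin libraries, against 50.5, 53.0 and 51.3 FPKM in control libraries. The groups were far apart, at −0.94 ± 0.10 on the log2 scale (adjusted p = 0.00184). CNN3, the acidic calponin, had 125.7, 139.4 and 137.5 FPKM in fluvastatin libraries, against 181.2, 190.7 and 197.7 FPKM in control libraries. It was 1.41-fold lower without overlap (log2 fold change −0.50 ± 0.09, adjusted p = 0.00874). CNN1, the smooth muscle calponin, went the other way at a very low level, with 1.47, 1.17 and 1.06 FPKM in fluvastatin libraries, against 0.361, 0.148 and 0.120 FPKM in control libraries. The ratio of its means was 5.88, or 9.18 without control replicate 0, while the log2 fold change of 0.89 ± 0.12 (adjusted p = 0.00337) is held down by the pseudocount of 1 FPKM. As the filter let it in through the fluvastatin libraries alone, its call is given as a description only. The calponin sum was 162.0 ± 9.39 FPKM in fluvastatin libraries and 241.7 ± 8.72 FPKM in control libraries (SD, n = 3 each).

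Tropomyosins are coiled-coil proteins that lie along the filament and decide which other proteins reach it. TPM4, a short non-muscle form, had 461.1, 519.7 and 523.7 FPKM in fluvastatin libraries, against 422.6, 401.4 and 377.6 FPKM in control libraries. The groups were separate, with a log2 fold change of 0.32 ± 0.10 and an adjusted p of 0.0465, which was lost with any 1 library left out (0.0603 to 0.129). TPM4 made up 46.9%, 47.8% and 50.7% of the tropomyosin sum in fluvastatin libraries, against 40.7%, 42.8% and 41.9% in control libraries. TPM1 averaged 64.4 ± 4.63 FPKM in fluvastatin libraries and 78.6 ± 3.77 FPKM in control libraries, with an adjusted p of 0.0625. TPM2 and TPM3 did not pass (adjusted p = 0.391 and 0.880). Neither did TAGLN, transgelin, an SRF target of smooth muscle, at 2.47, 1.29 and 1.41 FPKM in fluvastatin libraries and 0.857, 0.555 and 1.05 FPKM in control libraries (adjusted p = 0.0657). TAGLN lies over PCSK7 on the opposite strand. TAGLN2, the abundant non-muscle transgelin, averaged 337.2 ± 31.1 FPKM in fluvastatin libraries and 297.4 ± 22.3 FPKM in control libraries (adjusted p = 0.260). CALD1, caldesmon, and LIMA1, a filament-bundling LIM protein, had adjusted p-values of 0.294 and 0.152.

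Among crosslinkers and adhesion proteins 10 of 12 genes were tested, with 6 higher (60.0%, against 14.1% of all genes tested), 1 lower (10.0%, against 13.6%) and 3 that did not pass. Filamin A joins filaments into networks and ties them to integrins. FLNA had 230.6, 218.6 and 259.6 FPKM in fluvastatin libraries, against 154.5, 175.6 and 158.7 FPKM in control libraries. It was 1.45-fold higher without overlap (log2 fold change 0.53 ± 0.10, adjusted p = 0.0121). ACTN4, alpha-actinin-4, a non-muscle crosslinker, had 853.7, 950.4 and 911.9 FPKM in fluvastatin libraries, against 731.1, 772.1 and 644.0 FPKM in control libraries. Its groups were separate, but the log2 fold change of 0.34 ± 0.10 had an adjusted p of 0.0487, and the call was lost with any 1 library left out (0.0643 to 0.131). ACTN1, the other non-muscle alpha-actinin, averaged 112.4 ± 3.81 FPKM in fluvastatin libraries and 121.7 ± 12.8 FPKM in control libraries (adjusted p = 0.481). FLNC, the muscle filamin, and FILIP1L, a relative of a filamin-binding protein, were not tested: FLNC was at most 0.023 FPKM in any library, and FILIP1L was listed at 0 in 5 libraries.

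Talins link integrins to actin and activate integrins, and both were higher. TLN1, the widespread form, had 151.9, 143.8 and 163.3 FPKM in fluvastatin libraries, against 112.3, 110.0 and 113.1 FPKM in control libraries. It rose 1.37-fold, and its groups were separate (log2 fold change 0.45 ± 0.09, adjusted p = 0.0116). TLN1 lies over CREB3 on the opposite strand, which averaged 21.4 FPKM. TLN2, its scarcer relative, had 13.6, 15.5 and 16.1 FPKM in fluvastatin libraries, against 8.08, 6.07 and 5.36 FPKM in control libraries. It was 2.32-fold higher (log2 fold change 1.11 ± 0.15, adjusted p = 0.00350), and its share of talin RNA was 8.21%, 9.75% and 8.98% in fluvastatin libraries, against 6.71%, 5.23% and 4.52% in control libraries. Vinculin and zyxin, which join the same adhesions and are classical SRF targets, did not pass. VCL averaged 118.1 ± 0.416 FPKM in fluvastatin libraries and 114.8 ± 4.89 FPKM in control libraries (adjusted p = 0.732), and ZYX 96.8 ± 5.59 FPKM in fluvastatin libraries and 91.6 ± 8.82 FPKM in control libraries (adjusted p = 0.604).

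PDZ-LIM proteins bind alpha-actinin and stress fibres, and their balance differed between groups. PDLIM7, Enigma, had 126.4, 128.6 and 110.0 FPKM in fluvastatin libraries, against 63.7, 65.0 and 57.9 FPKM in control libraries. It was 1.96-fold higher (log2 fold change 0.95 ± 0.10, adjusted p = 0.00160), with no overlap. PDLIM5 had 39.0, 41.0 and 43.0 FPKM in fluvastatin libraries, against 23.6, 26.9 and 25.9 FPKM in control libraries. It was 1.61-fold higher (log2 fold change 0.67 ± 0.09, adjusted p = 0.00373), also with no overlap. PDLIM1 had 29.2, 29.4 and 31.0 FPKM in fluvastatin libraries, against 37.3, 37.9 and 35.9 FPKM in control libraries. It was lower in each fluvastatin library, by 0.30 ± 0.08 on the log2 scale with an adjusted p of 0.0331, a call lost with any 1 library left out (0.0514 to 0.105). PDLIM1 supplied 15.0%, 14.8% and 16.9% of the summed PDLIM RNA in fluvastatin libraries, against 29.9%, 29.2% and 30.0% in control libraries.

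**Figure D3:**
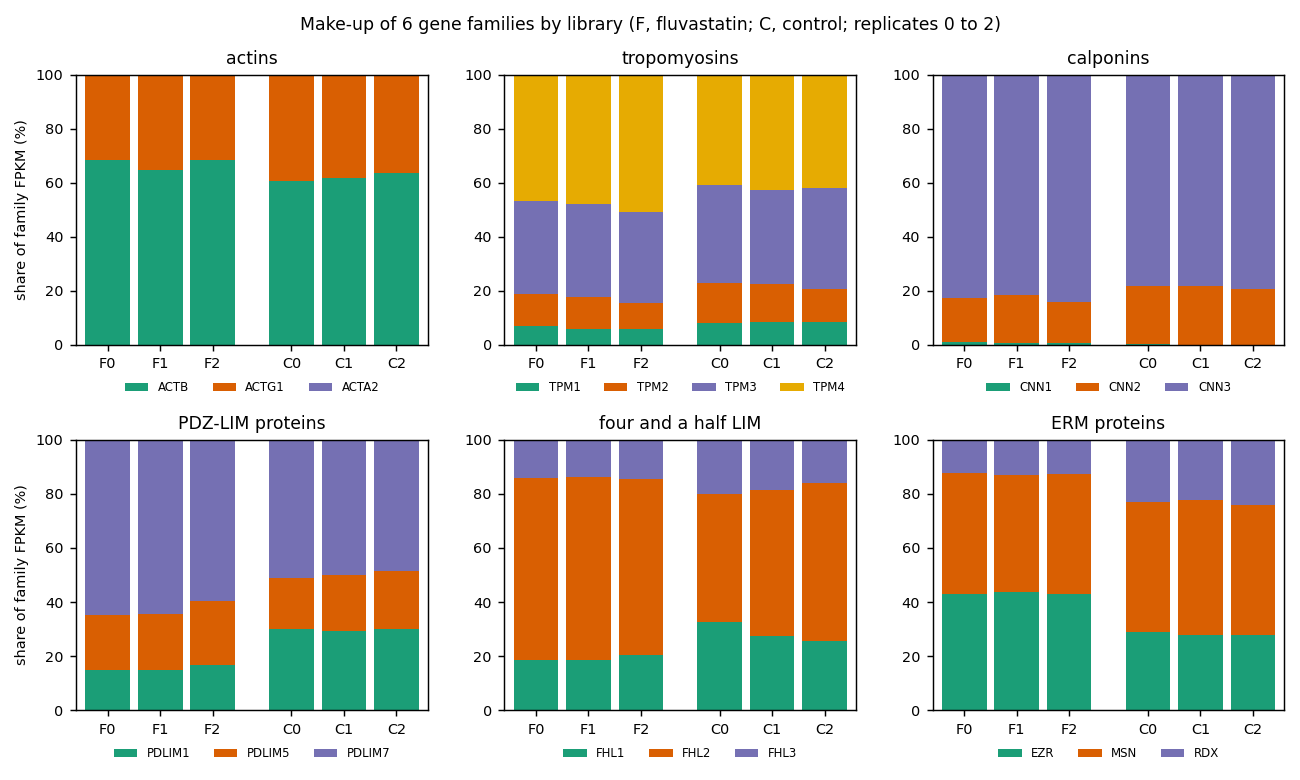
Stacked shares of each gene in the summed FPKM of its family, in percent, for 6 families, with fluvastatin libraries (F0 to F2) left of control libraries (C0 to C2). EZR takes 42.9% to 43.5% of the ezrin, radixin and moesin sum in fluvastatin libraries and 27.7% to 29.0% in control libraries, and PDLIM1 shows the opposite difference.

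FHL proteins are adaptors built of LIM domains, and FHL2 is both a target and a binding partner of SRF. FHL2 had 45.7, 48.0 and 45.2 FPKM in fluvastatin libraries, against 27.9, 30.3 and 32.1 FPKM in control libraries. Its groups did not overlap (log2 fold change 0.61 ± 0.09, adjusted p = 0.00489). FHL1 averaged 13.3 ± 0.798 FPKM in fluvastatin libraries and 16.2 ± 2.58 FPKM in control libraries (adjusted p = 0.177), and FHL3 9.83 ± 0.147 FPKM in fluvastatin libraries and 10.4 ± 1.48 FPKM in control libraries (adjusted p = 0.714).

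Ezrin, radixin and moesin link cortical actin to membrane proteins, and ezrin had the largest rise of the 44 tested genes on the log2(FPKM + 1) scale, where the pseudocount holds down CNN1, whose ratio of means was larger. EZR (chromosome 6, 158765741 to 158819412, minus strand) had 218.4, 233.7 and 238.2 FPKM in fluvastatin libraries, against 96.8, 87.6 and 84.4 FPKM in control libraries. It was 2.57-fold higher, with groups far apart (log2 fold change 1.35 ± 0.09, adjusted p = 3.94e-04). MSN, moesin, had 227.4, 233.4 and 246.8 FPKM in fluvastatin libraries, against 160.4, 157.6 and 146.6 FPKM in control libraries. It was 1.52-fold higher (log2 fold change 0.60 ± 0.09, adjusted p = 0.00416), also without overlap. RDX, radixin, averaged 67.5 ± 4.30 FPKM in fluvastatin libraries and 73.9 ± 3.11 FPKM in control libraries (adjusted p = 0.327). Ezrin and moesin levels were near each other in fluvastatin libraries, while moesin stood above ezrin in each control library. RDX gave 12.3%, 13.0% and 12.6% of the sum in fluvastatin libraries, against 23.0%, 22.4% and 24.2% in control libraries.

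**Figure D4:**
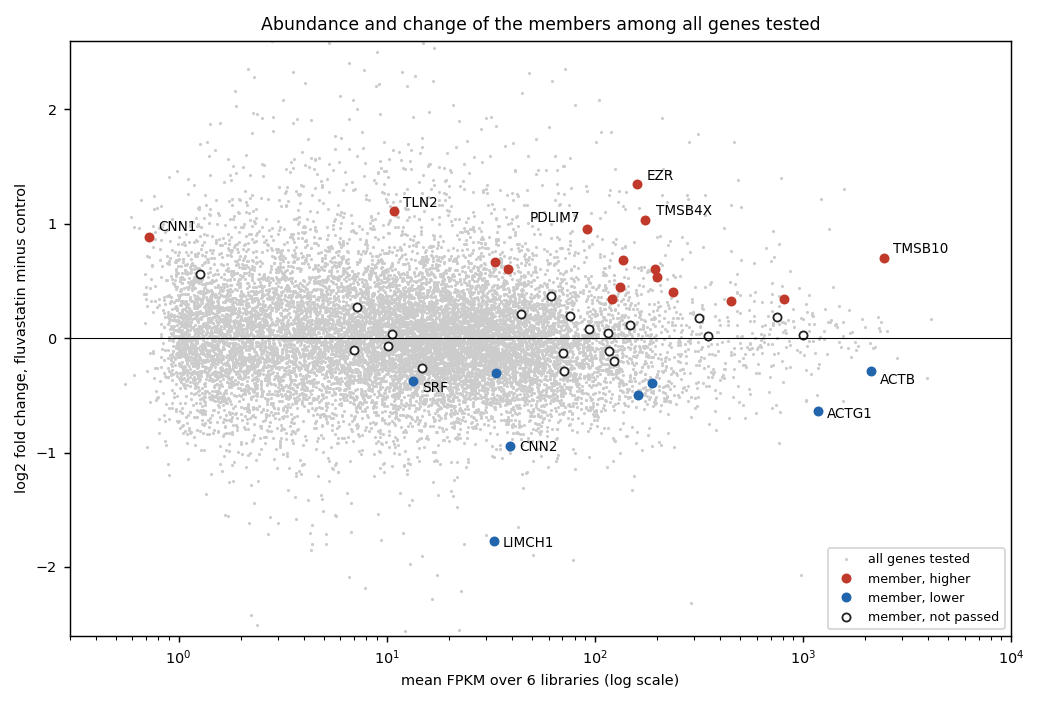
Log2 fold change, fluvastatin minus control, against mean FPKM on a logarithmic axis, with the 44 tested cytoskeletal genes over all other tested genes, of which 29 lie outside the range drawn. The 4 cytoskeletal genes above 1000 FPKM are ACTB and ACTG1 below 0, TMSB10 above 0 and CFL1 near 0.

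Genes of the same pathways outside the 46 were counted from lists written from textbook knowledge. The lists were written with earlier results of these data known, so their counts and shares are descriptions only. Over 6 such lists, 47 of 122 genes tested were called and the median log2 fold change was 0.21, against 27.7% called and a median of −0.01 over all genes tested. Of the 6 lists, 5 are described here.

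Other genes known as targets of SRF with its MKL coactivators were called in both directions. Of 23 tested, 7 were higher, 5 lower and 11 did not pass (median 0.22). The share called was 52.2%, against 27.7% of all genes tested. By direction it was 30.4% higher, against 14.1%, and 21.7% lower, against 13.6%. WDR1, which helps cofilin take filaments apart, averaged 342.4 ± 5.99 FPKM in fluvastatin libraries and 185.2 ± 12.0 FPKM in control libraries (adjusted p = 0.00127). TGFB1I1 and TES, adhesion proteins with LIM domains, were 1.83-fold and 1.61-fold higher (adjusted p = 0.00231 and 0.00330). The falls with the smallest adjusted p were CYR61, ANKRD1 and CTGF, genes also driven by YAP, at log2 fold changes of −1.94, −2.18 and −1.66 (adjusted p = 1.28e-04, 1.96e-04 and 1.97e-04). SRF also works with ternary complex factors downstream of ERK at immediate early genes, and of 9 of these tested 6 were higher, 1 lower and 2 did not pass (median 0.42). The share called was 77.8%, with 66.7% higher, against 14.1% of all genes tested, and 11.1% lower, near the 13.6%. NR4A1 averaged 14.4 ± 0.592 FPKM in fluvastatin libraries and 4.48 ± 0.238 FPKM in control libraries (adjusted p = 2.39e-04). ATF3 and EGR1 were 2.77-fold and 3.05-fold higher (adjusted p = 8.02e-04 and 9.25e-04), and MCL1, a survival protein, was 1.24-fold lower (adjusted p = 0.0437, up to 0.126 with 1 library left out). The immediate early list had 4 calls in place of 7 without fluvastatin replicate 0 or 1 or control replicate 1 or 2. The difference between these lists was not tested.

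The remaining lists held further actin and adhesion genes, among them gelsolin and kindlin-1, which were higher, and merlin, which was lower. Of 19 other Arp2/3 and WAVE genes, 7 were higher, none lower and 12 did not pass (median 0.13). The 36.8% called were all higher, against 27.7% of all genes tested in either direction, 14.1% higher and 13.6% lower. WIPF2, WASF2 and ARPC5 were 1.54-fold, 1.46-fold and 1.47-fold higher (adjusted p = 0.00393, 0.00694 and 0.00959). Without fluvastatin replicate 0 or 2 the list had 4 calls. Of 24 capping, bundling and severing genes tested, 7 were higher, 1 lower and 16 did not pass (median 0.29). The 33.3% called in either direction is near the 27.7% of all genes tested. By direction, 29.2% were higher, above the 14.1% of all genes, and 4.17% lower, below the 13.6%. GSN, gelsolin, which severs and caps filaments, averaged 81.0 ± 9.35 FPKM in fluvastatin libraries and 23.5 ± 1.12 FPKM in control libraries (adjusted p = 3.30e-04). SPTBN1, a beta-spectrin of the cortical network, was 1.48-fold higher (adjusted p = 0.00611). NF2, merlin, a relative of ezrin and upstream regulator of the Hippo pathway, averaged 95.5 ± 3.83 FPKM in fluvastatin libraries and 141.4 ± 9.97 FPKM in control libraries (adjusted p = 0.00694). Of 23 focal adhesion genes tested, 6 were higher, 1 lower and 16 did not pass (median 0.20). The 30.4% called in either direction is also near the 27.7% of all genes tested. By direction, 26.1% were higher, above the 14.1% of all genes, and 4.35% lower, below the 13.6%. FERMT1, a kindlin that helps talin to activate integrins, averaged 86.1 ± 8.58 FPKM in fluvastatin libraries and 30.3 ± 0.851 FPKM in control libraries (adjusted p = 3.74e-04). PDLIM4 and LMO7, both with PDZ and LIM domains, were 2.52-fold and 2.24-fold higher (adjusted p = 6.61e-04 and 0.00162). TNS3, a tensin, was 1.44-fold lower (adjusted p = 0.0219, up to 0.0679 with 1 library left out).

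**Figure D5:**
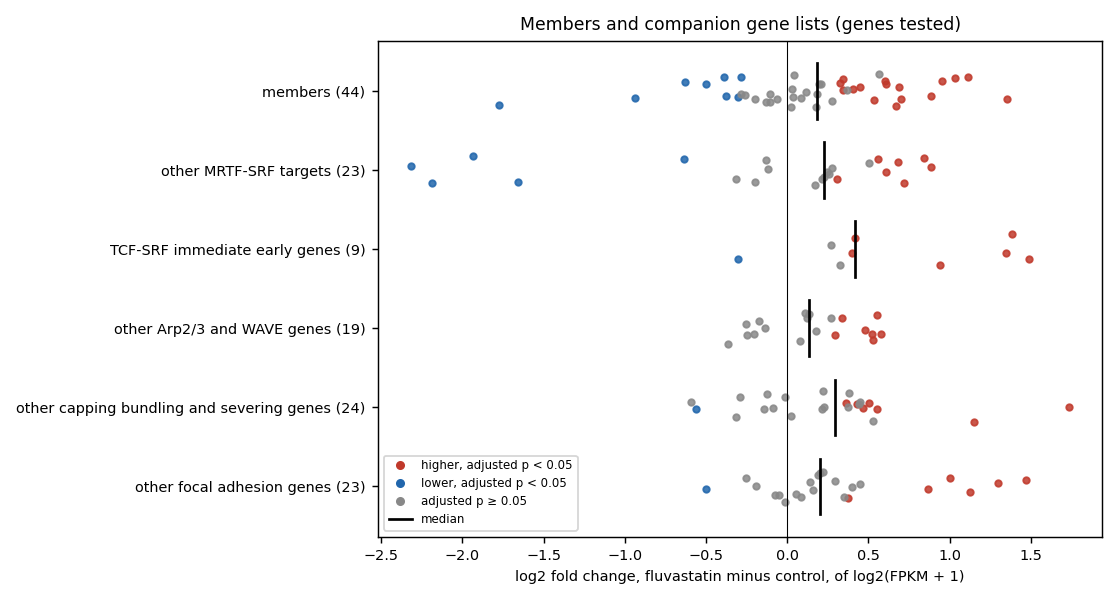
Log2 fold change, fluvastatin minus control, of each tested gene among the 46 (top row, members) and in 5 further lists, with colour for the call and a line at each median; vertical scatter within a row has no meaning. Among the further lists the immediate early genes have the highest median, 0.42, and the other Arp2/3 and WAVE genes the lowest, 0.13.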

How the data were processed

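RNA was measured in 6 libraries of A375 cells, 3 treated with fluvastatin and 3 untreated. STAR, Cufflinks and Cuffdiff were run with hg38, per the submitters' processing notes; versions, annotation release, strand setting and library scaling are not given in the sources used here. The deposited table holds 1 FPKM value per gene and library as far as the Cufflinks tools and the values tell, since its header names no unit. FPKM carries no counts, so precision was judged from the spread between libraries, and the smallest steps among low values were used to estimate relative depth.

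Genes that reached 1 FPKM in 3 or more of the 6 libraries were tested, two-sided, on log2(FPKM + 1) in R 4.3.3 by limma 3.58.1 (eBayes after lmFit, without trend, robust or block), with Benjamini-Hochberg adjustment over all 14344 genes tested; an adjusted p below 0.05 is a call. Means, SDs and folds are of FPKM, and log2 fold changes, which understate changes of low genes, are of log2(FPKM + 1). The fit and the depth estimate were tested on simulated data.

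The members and the lists were chosen with earlier results of these data known, so their counts are descriptions. Per-library values are given for every called member and for SRF, MKL1, MKL2, ACTB and the 3 most abundant, and up to 3 called genes per list and direction with the smallest adjusted p are named; values of a few others were added after they were seen. Gene coordinates are of GENCODE 29 (GRCh38), in which 33 of the 46 identifiers had the same version, and promoters are RefSeq sequences (GRCh38.p14). One of the lists and some list genes are not reported here. Alternatives tried were quantile normalization, trimmed-mean (M-value) scaling, no filter or one at a mean of 5 FPKM, a pseudocount of 0.1, the trend and robust options, depth as a covariate, the replicate number as a block, a 1.5-fold rule, each library left out and, chosen after seeing the data, a background of at least 50 FPKM.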

Additional observations from a re-analysis of the deposited data

How the results depend on the processing

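Of the 24 calls among the 46 genes, 16 passed in all 6 fits that left out 1 library and in 7 other settings, the depth covariate excepted. CNN1, whose call is a description only, is among these 16. Leaving out 1 library gave 2340 to 3416 called genes in the whole table, with 1274 to 1785 higher and 1066 to 1631 lower, against 3971 in all, the fewest without fluvastatin replicate 0; among the 46 genes it gave 17 to 18 calls, with 12 to 13 higher and 4 to 6 lower, and over the 6 further lists 31 to 37, against 47. With depth as a covariate 70 genes were called (57 higher and 13 lower), among the 46 genes 1 (0 higher and 1 lower), and 4 over the further lists; depth and treatment cannot be told apart. Requiring 1.5-fold left 13 of the 46, and a mean of at least 50 FPKM left 891 called genes in the table. Among the 46 genes there were 21 calls with a pseudocount of 0.1, 21 when no gene was filtered, 25 with the filter raised to a mean of 5 FPKM, 21 after trimmed-mean scaling, 24 after quantile normalization and 26 with the trend and robust options. Deviations of same-numbered libraries correlated at −0.0015, 0.0845 and 0.0842, and those of differently numbered libraries at −0.14 to 0.058. These values do not settle whether the replicate number pairs the samples. With the replicate block 3154 genes were called, 18 among the 46 (12 higher and 6 lower) and 40 over the further lists, where the other Arp2/3 and WAVE genes had 4 calls against 7. Signs turned only for genes that had not passed: CFL1 to −0.022 under quantile normalization and −0.22 with the depth covariate, with −0.081 to 0.11 when 1 library was left out; TPM3, at −0.020 to 0.084 when 1 library was left out; FHL3, at −0.16 to 0.028 in those fits; TAGLN2 to −0.10, VCL to −0.056, ZYX to −0.0090 and MKL1 to −0.071 with the depth covariate; and MKL1 to −0.0036 under quantile normalization. The cause was not tested. With 3 libraries a group and no counts behind the values, a gene that did not pass is not shown to be unchanged.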
